A study of Mus musculus with 6 samples.

Results

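The 37 genes described here are interferon-stimulated antiviral genes of the mouse, read from a table of raw counts for 49315 genes. They were chosen by gene name with no threshold on a measured value, but with earlier results of these data known. Their shares beside those of all genes are therefore descriptions. All 37 were found in the table. They were measured by RNA sequencing of polyadenylated RNA in 6 libraries, 2 of each of 3 groups, all from tail-tip skin of wild-type mice. Fibroblasts (TTF) at day 0 had received control lentiviral vectors, which the labels call "negetive". Early cells (early ciCPC) at day 7 had received vectors for CRISPR activation with the SAM system, in which a Cas9 that does not cut carries activators of transcription to the promoters of chosen genes. The early replicates are labelled as early reprogrammed cells (replicate 1) and partially reprogrammed cells (replicate 2), and they were treated as 1 group. Late colonies (late ciCPC) at day 22 had received the CRISPR activation vectors, had been isolated as colonies and are labelled as CRISPR-induced cardiac progenitors. The labels do not say what the control vectors carried, and vectors, day and colony isolation change together between the groups, so their parts cannot be told apart. The labels give neither the targeted genes nor the age or number of the mice.

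Interferons are secreted proteins that warn neighbouring cells of infection. Type I interferon binds the receptor of Ifnar1 and Ifnar2, the kinases Jak1 and Tyk2 are activated, and the transcription factor ISGF3, of which STAT2 and IRF9 are subunits, binds interferon-stimulated response elements (ISREs) in the promoters of antiviral genes. Cells make interferon after sensors of foreign or displaced nucleic acid, such as RIG-I (Ddx58), MDA5 (Ifih1) and cGAS, signal through the adaptors MAVS or STING (Tmem173) to IRF3 and IRF7. The antiviral proteins include RNA sensors, enzymes that degrade or bind RNA, membrane proteins that hold back viruses, and the ubiquitin-like ISG15 with its enzymes. Fibroblasts are a cell type in which this response has been studied for a long time.

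The promoters of these genes are shown first, since elements through which interferon acts on such genes lie in promoters. RefSeq promoters of build GRCm38.p6, from 250 bases before to 50 bases after the annotated start of transcription, were at hand for 28 of the 37 genes. For 22 of their 31 promoters the first 30 transcribed bases occurred in a GENCODE M21 transcript of the gene. Positions from the start therefore depend on the annotation used. The ISRE core was searched as GAAA, any 2 bases and GAAA, which reads TTTC, any 2 bases and TTTC on the other strand, and the gamma-activated site (GAS) core, an element of interferon gamma responses, as TTC, any 3 bases and GAA, which reads the same on both strands. The ISRE core was present for 12 of 28 genes (42.9%), against 3.99% of all 27025 genes with a promoter in the table. The GAS core was present for 7 of 28 (25%), against 9.55%. The 12 genes with an ISRE core were Stat2, Ifih1, Ddx58, Oas1a, Oas3, Ifit1, Ifit3, Rsad2, Eif2ak2, Bst2, Ifitm3 and Isg15. Those with a GAS core were Irf1, Oas1a, Ifit2, Eif2ak2, Bst2, Ifitm3 and Ifi35, of which Oas1a, Eif2ak2, Bst2 and Ifitm3 had both. A match describes letters of the reference and no binding was measured. The 250 bases before the start are printed for 1 gene from each of 4 role groups, chosen by expression level among the genes with an ISRE core before the start, 5′ to 3′ in the direction of the gene with each ISRE core in capitals. They lie at chr8:71537473-71537722 on the minus strand for Bst2, chr10:128270248-128270497 on the plus strand for Stat2, chr19:34583279-34583528 on the plus strand for Ifit3, chr4:156200819-156201068 on the minus strand for Isg15.
Bst2: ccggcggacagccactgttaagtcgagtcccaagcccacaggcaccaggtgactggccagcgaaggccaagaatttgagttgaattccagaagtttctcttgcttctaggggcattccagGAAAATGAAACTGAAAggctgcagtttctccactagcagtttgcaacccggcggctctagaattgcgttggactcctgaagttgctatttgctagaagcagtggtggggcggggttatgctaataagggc
Stat2: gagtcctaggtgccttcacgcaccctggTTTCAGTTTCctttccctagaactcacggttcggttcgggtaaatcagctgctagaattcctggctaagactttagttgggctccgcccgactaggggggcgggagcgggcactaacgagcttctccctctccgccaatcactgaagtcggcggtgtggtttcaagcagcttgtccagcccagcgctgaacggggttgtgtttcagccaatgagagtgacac
Ifit3: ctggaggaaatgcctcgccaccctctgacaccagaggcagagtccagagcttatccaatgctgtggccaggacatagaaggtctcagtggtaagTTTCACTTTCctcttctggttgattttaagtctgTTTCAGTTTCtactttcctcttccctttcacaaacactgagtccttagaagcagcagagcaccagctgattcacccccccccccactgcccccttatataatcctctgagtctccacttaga
Isg15: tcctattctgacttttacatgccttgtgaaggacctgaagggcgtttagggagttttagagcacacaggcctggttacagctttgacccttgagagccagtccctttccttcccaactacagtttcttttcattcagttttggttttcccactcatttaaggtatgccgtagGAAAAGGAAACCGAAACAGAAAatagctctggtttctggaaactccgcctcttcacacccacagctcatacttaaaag

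In Bst2 a pair of ISRE cores overlapped, which gives a run of 3 GAAA repeats, and in Isg15 3 overlapping cores gave 4 repeats. Ifit3 held its pair of cores on the other strand, at separate places, and Stat2 held a single core on the other strand far from its start. In 5 further genes an ISRE core is shown in a window of 30 bases, to compare its strand and surroundings between families. Ifit1 and Ifitm3 each held a further core that is not printed. The windows lie at chr5:120907523-120907552 on the minus strand for Oas1a, chr19:34640794-34640823 on the plus strand for Ifit1, chr12:26456553-26456582 on the minus strand for Rsad2, chr4:40239804-40239833 on the minus strand for Ddx58, chr7:141010706-141010735 on the minus strand for Ifitm3.
Oas1a: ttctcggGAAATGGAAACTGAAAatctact
Ifit1: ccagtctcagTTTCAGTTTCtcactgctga
Rsad2: ctggtccaacTTTCATTTTCagaaaacaga
Ddx58: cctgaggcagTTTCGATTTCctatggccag
Ifitm3: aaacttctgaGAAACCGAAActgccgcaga

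Oas1a and Ifitm3 read as GAAA repeats in the direction of the gene, and Ifit1, Rsad2 and Ddx58 as the reverse. In Ddx58 and Ifitm3 the cores lay just after the annotated start.

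**Figure D1:**
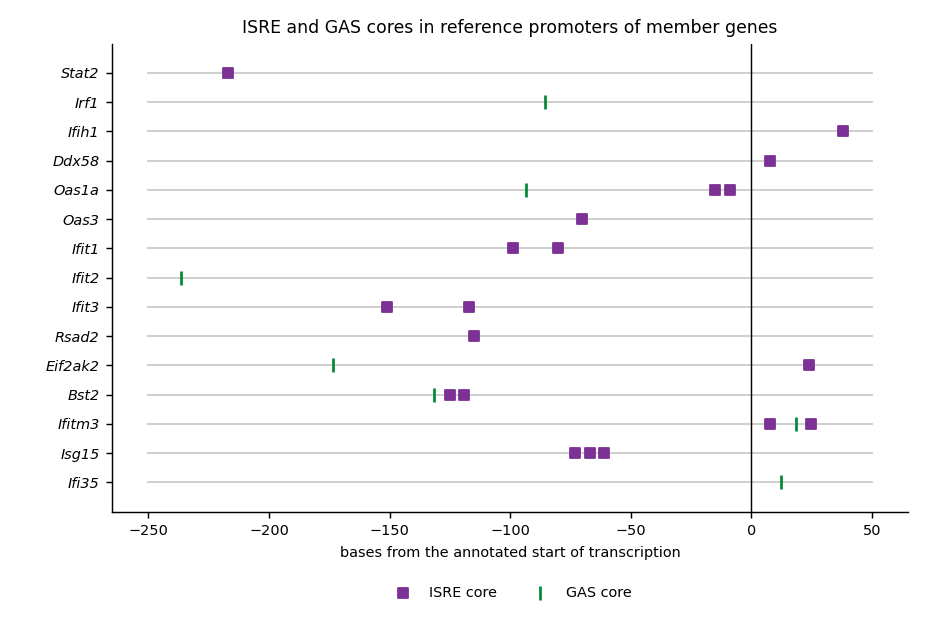
Positions of ISRE cores (squares) and GAS cores (bars) in the RefSeq promoters of the 15 genes that hold either, in bases from the annotated start of transcription (0), over the window from 250 bases before to 50 bases after it. The cores of Bst2 lie between 140 and 110 bases before the start and those of Isg15 between 80 and 50 bases before it, whereas those of Ddx58, Ifih1 and Ifitm3 lie after it.

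Total counts ranged from 20172874 to 40122999 per library, and 16688 genes passed the filter on low counts and were tested, all 37 antiviral genes among them. The filter asked for 0.38 CPM, counts scaled to library size, in 2 libraries. In fibroblasts alone 32 of the 37 would have passed, and Oas1a, Oas2, Oasl1, Mx1 and Mx2 would not; in early cells alone 36 would have passed and in late colonies alone 35. A gene was called at an adjusted p under 0.05 in edgeR's quasi-likelihood test with Benjamini-Hochberg adjustment over all genes tested. Late replicate 2 stood apart, with 48400 CPM summed over 8 cardiomyocyte markers and 10.3% of its counts on the mitochondrial genome, against at most 125 CPM and 2.16% in the other 5 libraries. Summed over 8 fibroblast markers, the libraries ranged from 2600 CPM in late replicate 1 to 12300 CPM in early replicate 2. The early replicates differed widely in these markers, with Col3a1 at 17.0 CPM in early replicate 1 and 3890 CPM in early replicate 2, Dcn at 3.21 and 679 CPM, Thy1 at 12.4 and 178 CPM and Lum at 0 and 102 CPM. The part of this difference in the values of the antiviral genes was not tested. Nothing in the labels ties the replicates of a group to different cultures or mice, so the p-values reflect only how far these libraries differ, which may be technical.

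In early cells most of the antiviral genes were higher than in fibroblasts and than in late colonies. The median log2 CPM of the 37 genes was 2.67 and 3.14 in the fibroblast libraries, 4.32 and 4.50 in the early libraries and 3.38 and 3.02 in the late libraries, while the median of all genes tested stayed between 3.90 and 4.23. Both early libraries lay above all 4 others for 25 of the 37 genes, against 7.53% of all genes tested. The group mean of log2 CPM was highest in early cells for 32 of the 37, against 28.2% of all genes, in fibroblasts for Ifit2, Ifit3 and Trim25, and in late colonies for Rsad2 and Ifitm1. In bulk RNA fewer cells that make a transcript and less of it per cell cannot be told apart.

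**Figure D2:**
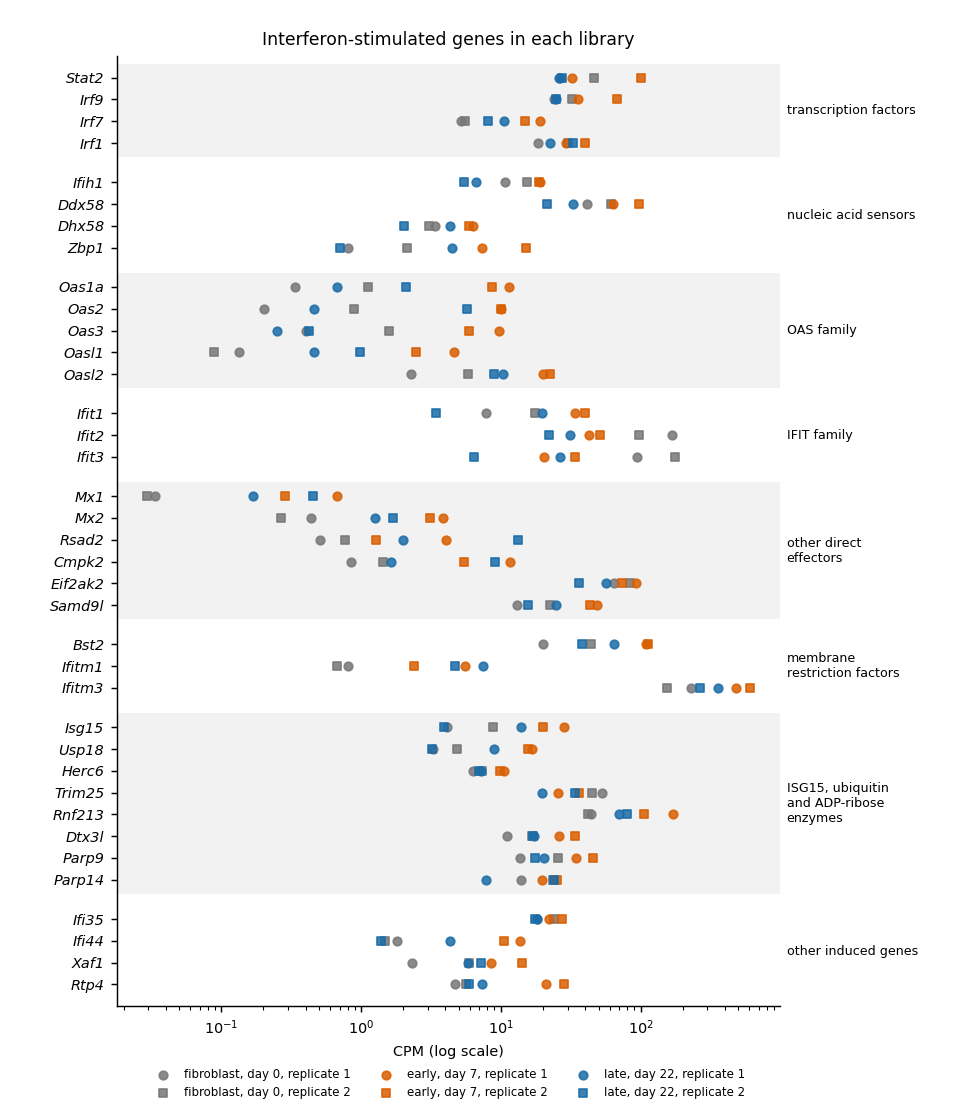
CPM on a log scale (x axis) of the 37 genes in each of the 6 libraries, grouped by role, with circles for replicate 1 and squares for replicate 2. The early libraries (orange) lie to the right of the 4 others for 25 of the 37 genes, and Ifit2, Ifit3 and Trim25 are highest in fibroblasts (grey).

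No antiviral gene was called in any of the 3 comparisons, although most were higher in early cells than in either other group. Between early cells and fibroblasts edgeR called 0 of 37 (1.53% of all genes tested), while 23 of 37 had an unadjusted p under 0.05 (29.8% of all genes), 21 of them higher and 2 lower, against 15.3% and 14.5% of all genes. DESeq2 called 18 higher and 2 lower, against 12.6% of all genes in each direction. Among the 21 were Oas1a, Oas2, Oasl1, Mx1 and Mx2, which in fibroblasts alone would not have passed the filter. All of these but Mx1 were also among the 18. They were tested only through the groups in which they are higher, so these counts are descriptions. Fitted values were higher in early cells for 34 of the 37 (50.2% of all genes), with a median log2 fold change of 1.53 against 0.00 over all genes tested. Both early libraries lay above both fibroblast libraries for 29 genes (32.3% of all genes) and below them for 3 (34.4%).

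Between late colonies and fibroblasts edgeR called 0 of 37 (1.42% of all genes tested), and 9 had an unadjusted p under 0.05 (32.5% of all genes). Of these 6 were higher, against 17.2% of all genes, and 3 lower, against 15.3%. DESeq2 called 4 higher, against 14.7% of all genes, and 3 lower, against 13.3%. Oasl1, Mx1 and Mx2 were among the 6, and Oasl1 and Mx2 among the 4. In fibroblasts alone they would not have passed the filter, so these counts are descriptions. Fitted values were higher in late colonies for 23 of the 37, against 54.1% of all genes, with a median log2 fold change of 0.37 against 0.11. Both late libraries lay above both fibroblast libraries for 12 genes (35.7% of all genes) and below them for 6 (32.9%), shares close to or below those of all genes. Without late replicate 1 the median was -0.06, with 18 genes higher, and without late replicate 2 it was 0.49, with 23 higher.

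Between late colonies and early cells edgeR called 0 of 37, as it did for all genes tested (0.0%), and 14 of the 37 had an unadjusted p under 0.05 (10.2% of all genes). All 14 were lower in late colonies, against 2.82% of all genes, and 0 were higher, against 7.42%. DESeq2 called 6 lower, against 0.851% of all genes, which were Ifih1, Ddx58, Oas1a, Oas3, Ifi44 and Rtp4, and 0 higher, against 4.72%. Oas3 was among the 14 and the 6, and in late colonies alone it would not have passed the filter. Fitted values were higher in late colonies for 2 of the 37, Rsad2 and Ifitm1, against 47.1% of all genes, and the median log2 fold change was -1.05 against -0.03. Both late libraries lay below both early libraries for 29 genes (17.6% of all genes) and above them for 0 (16.1%). The 3 comparisons share libraries, so their values are given side by side and are not independent of each other.

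**Figure D3:**
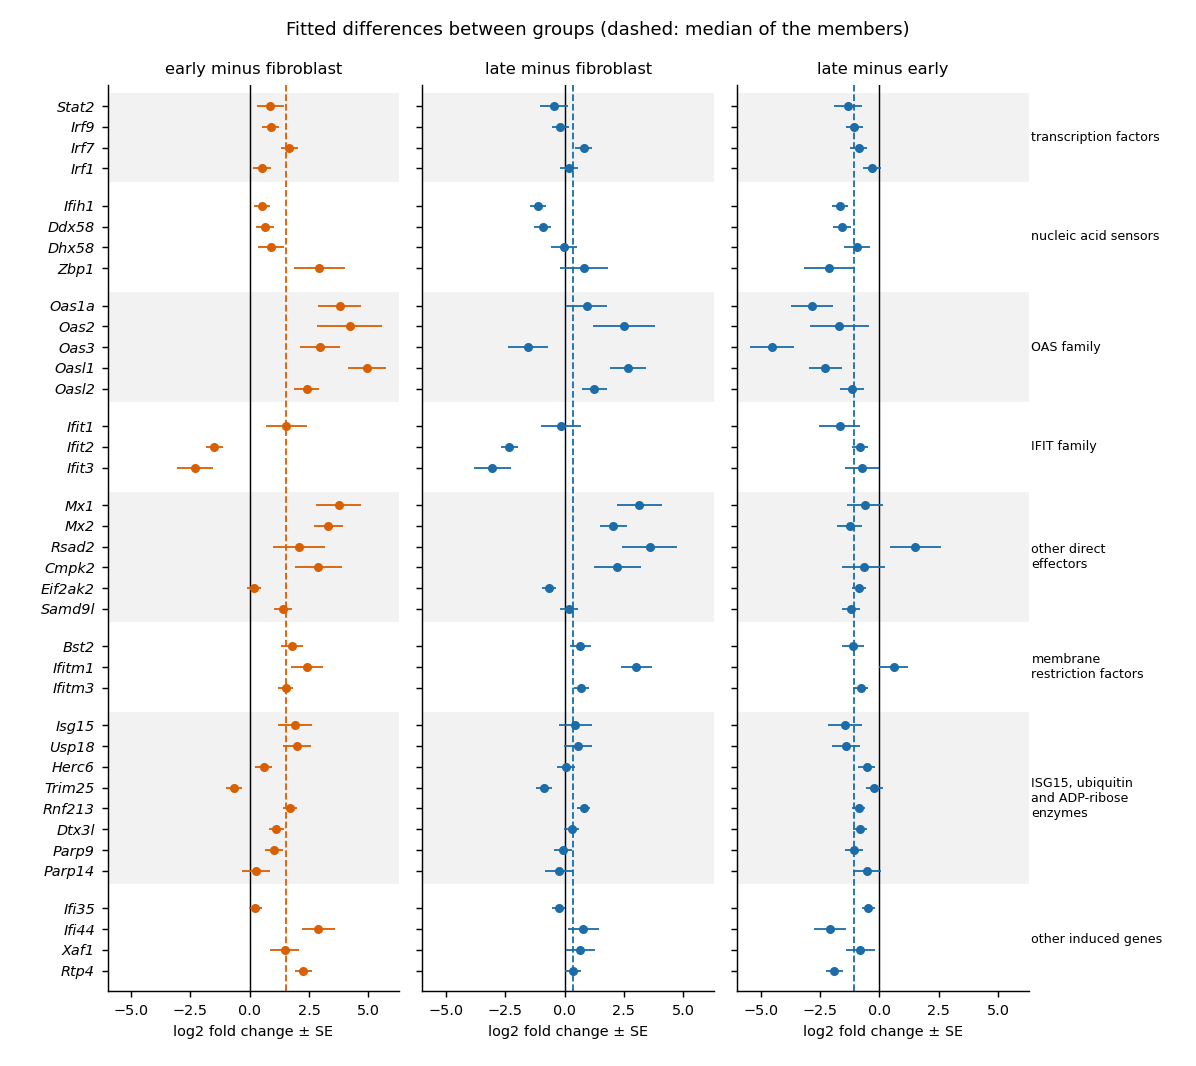
Fitted log2 fold changes with their standard errors (points and bars) of the 37 genes in 3 panels, early minus fibroblast, late minus fibroblast and late minus early. Dashed lines mark the medians of the 37 genes, which are 1.53, 0.37 and -1.05, and the solid line marks 0.

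Among the transcription factors, Irf7 set the groups apart most clearly. IRF7 amplifies the response by driving further interferon genes. Irf7 was at 5.14 and 5.53 CPM in fibroblasts, 19.0 and 14.9 CPM in early cells and 10.5 and 8.03 CPM in late colonies. No library of a group overlapped with another group. Its log2 fold change was 1.67 ± 0.36 (SE) in early cells against fibroblasts (edgeR adjusted p = 0.0708) and 0.80 ± 0.35 in late colonies against fibroblasts (edgeR adjusted p = 0.18). Stat2, a subunit of ISGF3, was at 26.4 and 46.4 CPM in fibroblasts, 32.3 and 100 CPM in early cells and 26 and 27.3 CPM in late colonies. The early replicates of Stat2 differed more than 2-fold, and early replicate 1 lay between the fibroblast libraries. Its log2 fold change in early cells against fibroblasts was 0.87 ± 0.58 (edgeR adjusted p = 0.366). Irf9, the subunit of ISGF3 that recognises the ISRE, was at 24 and 32.1 CPM in fibroblasts, 35.9 and 67.2 CPM in early cells and 24.9 and 24.7 CPM in late colonies, with a log2 fold change of 0.88 ± 0.36 in early cells against fibroblasts (edgeR adjusted p = 0.179) and -1.05 ± 0.36 in late colonies against early cells (edgeR adjusted p = 0.446). Irf1, an activator induced mainly by interferon gamma, had overlapping libraries in all 3 comparisons, between 18.4 and 39.9 CPM.

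All 4 nucleic acid sensors had both early libraries above the 4 others, against 7.53% of all genes tested. For Ddx58 the margin over fibroblasts was narrow. Ifih1, which encodes the sensor of long double-stranded RNA MDA5, was at 10.7 and 15.4 CPM in fibroblasts, 18.9 and 18.6 CPM in early cells and 6.59 and 5.42 CPM in late colonies. Ddx58, which encodes RIG-I, the sensor of RNA ends with triphosphates, was at 41.0 and 61.2 CPM in fibroblasts, 63.2 and 97.7 CPM in early cells and 32.7 and 21.3 CPM in late colonies. Both were lowest in late colonies, below both fibroblast libraries. The log2 fold change in late colonies against early cells was -1.64 ± 0.34 for Ifih1 and -1.58 ± 0.38 for Ddx58 (edgeR adjusted p = 0.361 and 0.377), and against fibroblasts it was -1.12 ± 0.34 for Ifih1 and -0.92 ± 0.37 for Ddx58 (edgeR adjusted p = 0.1 and 0.157). Zbp1, a sensor of left-handed nucleic acid that can trigger cell death, was at 0.806 and 2.12 CPM in fibroblasts, 7.30 and 15.1 CPM in early cells and 4.46 and 0.702 CPM in late colonies. Its late libraries were on either side of the fibroblast libraries, and its log2 fold change in early cells against fibroblasts was 2.93 ± 1.08 (edgeR adjusted p = 0.149). Dhx58, whose product LGP2 tunes the other RNA sensors, ranged from 2.02 to 6.28 CPM.

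Of the role groups the OAS family had the highest median log2 fold change in early cells against fibroblasts, 3.78, from low levels in fibroblasts. OAS enzymes make short oligoadenylates that activate the RNA-degrading enzyme RNase L. The family's summed CPM was 3.36 and 9.44 in fibroblasts, 55.8 and 49.6 in early cells and 12.2 and 18.2 in late colonies. Both early libraries lay above the 4 others for all 5 members, against 7.53% of all genes tested. Oas1a, Oas2 and Oasl1 passed the filter only through the other groups. The median, this count and the fold changes of these genes against fibroblasts are therefore descriptions. Oasl1, an OAS-like protein without enzyme activity, was at 0.134 and 0.0882 CPM in fibroblasts, 4.59 and 2.46 CPM in early cells and 0.459 and 0.983 CPM in late colonies. The log2 fold change of Oasl1 in early cells against fibroblasts, 4.94 ± 0.79, was the highest of the 37 genes (edgeR adjusted p = 0.0541). Oasl2, another OAS-like protein, was at 2.28 and 5.77 CPM in fibroblasts, 19.9 and 22.6 CPM in early cells and 10.3 and 8.93 CPM in late colonies, with a log2 fold change of 2.40 ± 0.53 in early cells against fibroblasts (edgeR adjusted p = 0.0725).

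Late replicate 2 held some of the other OAS genes and not others above the fibroblast range. Oas3, a large OAS enzyme with several repeated units, was at 0.403 and 1.59 CPM in fibroblasts, 9.75 and 5.87 CPM in early cells and 0.250 and 0.421 CPM in late colonies. Its log2 fold change in late colonies against early cells was -4.51 ± 0.92, the lowest of the 37 genes in that comparison (edgeR adjusted p = 0.361), and late replicate 2 held Oas3 at a low level. Oas2, the neighbour of Oas3 on chromosome 5 with 3244 bases between them, was at 0.201 and 0.882 CPM in fibroblasts, 10.1 in each early library and 0.459 and 5.76 CPM in late colonies. In late replicate 2, Oas2 was above the fibroblast range and Oas3 was not. The log2 fold change of Oas2 in early cells against fibroblasts was 4.20 ± 1.39 (edgeR adjusted p = 0.125). Oas1a was at 0.336 and 1.12 CPM in fibroblasts, 11.5 and 8.61 CPM in early cells and 0.667 and 2.11 CPM in late colonies. The counts of Oas1a are uncertain, since 57.6% of the 50-base stretches of its transcripts also occur in Oas1g, which was at 0.0336 and 0.118 CPM in fibroblasts, 1.96 and 1.51 CPM in early cells and 0.0834 and 0.168 CPM in late colonies.

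The IFIT family split within a single gene cluster, with Ifit1 highest in early cells and Ifit2 and Ifit3 highest in fibroblasts. Of the IFIT proteins, IFIT1 binds RNA with foreign ends and blocks its translation. Ifit2, Ifit3 and Ifit1 lie in this order on the plus strand of chromosome 19. There are 7111 bases between Ifit2 and Ifit3 and 52139 bases between Ifit3 and Ifit1. Ifit1 was at 7.79 and 17.6 CPM in fibroblasts, 33.7 and 39.9 CPM in early cells and 19.7 and 3.43 CPM in late colonies, so that both early libraries were the highest. The log2 fold change of Ifit1 in early cells against fibroblasts was 1.53 ± 0.86 (edgeR adjusted p = 0.289), and its late replicates differed more than 2-fold. Ifit2 was at 169 and 96.6 CPM in fibroblasts, 42.4 and 51.5 CPM in early cells and 31.2 and 22.1 CPM in late colonies. Ifit3 was at 94.1 and 177 CPM in fibroblasts, 20.5 and 34.1 CPM in early cells and 26.4 and 6.40 CPM in late colonies. For Ifit2 and Ifit3 both fibroblast libraries lay above all 4 CRISPR activation libraries.

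In early cells against fibroblasts the log2 fold change was -1.50 ± 0.36 for Ifit2 and -2.31 ± 0.75 for Ifit3 (edgeR adjusted p = 0.077 and 0.121). In late colonies against fibroblasts it was -2.32 ± 0.36 for Ifit2 and -3.05 ± 0.78 for Ifit3 (edgeR adjusted p = 0.0556 and 0.0807). Without late replicate 1 the value for Ifit3 was -4.49 and passed the test (edgeR adjusted p = 0.0415), with late replicate 2, which stood apart, as the only late library. That test takes the spread from the other groups and assumes that the lone library varies like them. Among the 37 genes Ifit2 and Ifit3 had the lowest fold changes in both comparisons with fibroblasts. ISRE cores began at -104 and -85 bases from the annotated start in Ifit1, of which only that at -85 is printed above. In Ifit3 they began at -156 and -122. All read as TTTC repeats in the direction of the gene. The part of these cores in the split was not tested. Ifit3 shares 51.2% of its 50-base stretches with Ifit3b, so its counts are uncertain. Ifit3b was at 11.4 and 16.4 CPM in fibroblasts, 6.77 and 10.3 CPM in early cells and 12.2 and 2.08 CPM in late colonies.

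The direct effectors ranged from barely detected to abundant. Mx2, a dynamin-like GTPase, was at 0.436 and 0.265 CPM in fibroblasts, 3.88 and 3.12 CPM in early cells and 1.25 and 1.68 CPM in late colonies. The 3 groups of Mx2 did not overlap, and its log2 fold change was 3.31 ± 0.60 in early cells against fibroblasts (edgeR adjusted p = 0.0595) and 2.06 ± 0.57 in late colonies against fibroblasts (edgeR adjusted p = 0.089). Mx2 passed the filter only through the early and late libraries, so these values are descriptions. Mx1, its neighbour and relative, had 21 counts in early cells and 2 in fibroblasts over both libraries, a ratio of 15.4 after scaling (exact 95% interval 3.76 to 135). In late colonies Mx1 had 20 counts, against the same 2 in fibroblasts, a ratio of 10.7 (2.60 to 94.4). These intervals cover counting error only. In no group alone would Mx1 have passed the filter, so its ratios are descriptions too. Samd9l, a restriction factor of poxviruses, was at 13 and 22.3 CPM in fibroblasts, 48.4 and 43.3 CPM in early cells and 24.9 and 15.6 CPM in late colonies, with a log2 fold change of 1.38 ± 0.38 in early cells against fibroblasts (edgeR adjusted p = 0.0946). Eif2ak2, which encodes the translation-blocking kinase PKR, had the smallest fitted difference of the direct effectors between early cells and fibroblasts, at 64.3 and 83.8 CPM in fibroblasts, 93.2 and 73.3 CPM in early cells and 56.3 and 36.5 CPM in late colonies. Its libraries overlapped between early cells and fibroblasts, and both late libraries lay below both fibroblast libraries. The log2 fold change of Eif2ak2 against fibroblasts was 0.17 ± 0.30 in early cells and -0.67 ± 0.30 in late colonies (edgeR adjusted p = 0.748 and 0.189).

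Rsad2 and Cmpk2 shared a high value in late replicate 2. They are divergent neighbours on chromosome 12 with 12751 bases between them, and their enzymes work in sequence, CMPK2 making the CTP that viperin (Rsad2) turns into a chain terminator of viral RNA synthesis. Rsad2 was at 0.504 and 0.765 CPM in fibroblasts, 4.05 and 1.28 CPM in early cells and 2 and 13.3 CPM in late colonies. Cmpk2 was at 0.839 and 1.44 CPM in fibroblasts, 11.6 and 5.44 CPM in early cells and 1.63 and 9.10 CPM in late colonies. Both genes were above both fibroblast libraries in every CRISPR activation library, and within early cells both were more than 2-fold higher in replicate 1.

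All 3 membrane restriction factors were higher in both early libraries than in both fibroblast libraries, against 32.3% of all genes tested. Ifitm3 was the most abundant of the 37 genes per length in each group. Ifitm3, which stops viruses from fusing with endosomes, averaged 282 CPM per kilobase of exon in fibroblasts, 802 in early cells and 462 in late colonies. On the same scale Bst2 averaged 35.8 in fibroblasts, below Ifit3 at 77.5, 122 in early cells and 56.8 in late colonies. Ifitm3 was at 228 and 154 CPM in fibroblasts, 483 and 605 CPM in early cells and 359 and 268 CPM in late colonies. The groups did not overlap, and the log2 fold change was 1.51 ± 0.32 in early cells against fibroblasts (edgeR adjusted p = 0.0693). Bst2, which encodes tetherin, a tie that keeps budding viruses on the cell, was at 20.1 and 44.5 CPM in fibroblasts, 109 and 112 CPM in early cells and 64.6 and 37.9 CPM in late colonies, with a log2 fold change of 1.77 ± 0.47 in early cells against fibroblasts (edgeR adjusted p = 0.0866). Its late libraries overlapped with the fibroblast range. Ifitm1, a relative of Ifitm3 at the cell surface, was at 0.806 and 0.677 CPM in fibroblasts, 5.57 and 2.37 CPM in early cells and 7.46 and 4.69 CPM in late colonies. The late and early libraries of Ifitm1 overlapped, and its log2 fold change against fibroblasts was 2.41 ± 0.66 in early cells and 3.03 ± 0.67 in late colonies (edgeR adjusted p = 0.0904 and 0.0696).

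Of the ISG15 system, Isg15, Usp18 and Herc6 were higher in both early libraries than in both fibroblast libraries, against 32.3% of all genes tested. Isg15, a ubiquitin-like protein that is attached to newly made proteins, was at 4.13 and 8.77 CPM in fibroblasts, 28.4 and 20 CPM in early cells and 13.9 and 3.90 CPM in late colonies. Usp18, which removes ISG15 and dampens the interferon receptor, was at 3.29 and 4.88 CPM in fibroblasts, 16.7 and 15.7 CPM in early cells and 8.96 and 3.23 CPM in late colonies. Herc6, the main ISG15 ligase of the mouse, was at 6.31 and 7.32 CPM in fibroblasts, 10.6 and 9.84 CPM in early cells and 7.25 and 6.94 CPM in late colonies. In all 3 genes both early libraries exceeded the other 4 (7.53% of all genes tested), and late replicate 2 was at or near the fibroblast level. The log2 fold change in early cells against fibroblasts was 1.91 ± 0.73 for Isg15, 1.99 ± 0.60 for Usp18 and 0.58 ± 0.36 for Herc6 (edgeR adjusted p = 0.158, 0.106 and 0.326). Herc6 overlaps another gene on the same strand over 13.7% of its exons, so its counts may include reads of that gene.

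Of the ubiquitin and ADP-ribose enzymes, Rnf213 was highest in early cells and Trim25 in fibroblasts. Rnf213, a very large ubiquitin ligase that coats pathogens, was at 43.8 and 41.9 CPM in fibroblasts, 170 and 105 CPM in early cells and 69.9 and 80.3 CPM in late colonies. Its 3 groups did not overlap, and the log2 fold change was 1.68 ± 0.29 in early cells (edgeR adjusted p = 0.0566) and 0.81 ± 0.28 in late colonies against fibroblasts (edgeR adjusted p = 0.126). Trim25, a ubiquitin ligase that helps RIG-I signal, was at 53.2 and 45.0 CPM in fibroblasts, 25.7 and 36.3 CPM in early cells and 19.7 and 33.9 CPM in late colonies, with a log2 fold change of -0.66 ± 0.35 in early cells and -0.87 ± 0.35 in late colonies against fibroblasts (edgeR adjusted p = 0.265 and 0.158). Parp9 and Dtx3l, whose products form a pair that modifies histones and viral proteins, overlap on opposite strands of chromosome 16. Dtx3l was at 11.1 and 16.6 CPM in fibroblasts, 26.1 and 33.8 CPM in early cells and 17.3 and 17.0 CPM in late colonies. Parp9 followed with 13.6 and 25.8 CPM in fibroblasts, 34.3 and 45.3 CPM in early cells and 20.3 and 17.6 CPM in late colonies. Because exons of Parp9 and Dtx3l overlap and no source used here gives the strand setting of the counting, a part of their reads cannot be told apart. Parp14, a neighbour of Dtx3l, overlapped between all groups, at 7.88 to 25.4 CPM.

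Of the 37 genes Rtp4 came closest to a call. Rtp4, a receptor-transporting protein that is induced by interferon and binds viral replication complexes, was at 4.67 and 5.65 CPM in fibroblasts, 21.1 and 28.2 CPM in early cells and 7.38 and 5.93 CPM in late colonies. Its log2 fold change was 2.25 ± 0.35 in early cells against fibroblasts (edgeR adjusted p = 0.0528, the smallest of the 37 genes) and -1.89 ± 0.35 in late colonies against early cells (edgeR adjusted p = 0.35). Ifi44 was at 1.81 and 1.47 CPM in fibroblasts, 13.6 and 10.6 CPM in early cells and 4.33 and 1.38 CPM in late colonies, with a log2 fold change of 2.88 ± 0.69 in early cells against fibroblasts (edgeR adjusted p = 0.0779). For both genes the early libraries were well above the rest and late replicate 2 was close to fibroblasts. Xaf1, a promoter of cell death, was at 2.32 and 5.88 CPM in fibroblasts, 8.51 and 14.2 CPM in early cells and 5.84 and 7.22 CPM in late colonies. Ifi35, which binds signalling factors in the cytoplasm, was at 18.1 and 23.9 CPM in fibroblasts, 22 and 27.3 CPM in early cells and 18.1 and 17.4 CPM in late colonies, with overlap between early cells and fibroblasts and a log2 fold change of 0.24 ± 0.27 (edgeR adjusted p = 0.603). Ifi35 overlaps an antisense gene over 16.8% of its exons, and Rtp4 another gene over 13.9%, so their counts may include reads of these.

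Replicates differed more for the antiviral genes than for the median gene within fibroblasts and within late colonies. The median absolute log2 difference between replicates was 0.58 for the 37 genes against 0.26 for all genes in fibroblasts, 0.40 for the 37 genes against 0.48 in early cells and 0.63 against 0.45 in late colonies. In fibroblasts 9 of the 37 were more than 2-fold apart (11.8% of all genes), and all 9 were higher in replicate 2 (5.78%), against 0 in replicate 1 (6.04%). These were Zbp1, Oas1a, Oas2, Oas3, Oasl2, Ifit1, Bst2, Isg15 and Xaf1. In early cells 6 were more than 2-fold apart (23.6%), of which Stat2 and Zbp1 were higher in replicate 2 (13.8%) and Mx1, Rsad2, Cmpk2 and Ifitm1 in replicate 1 (9.79%). In late colonies 13 were (26.8%). The 13 in late colonies pointed both ways. Oas1a, Oas2, Mx1, Rsad2, Cmpk2 and Parp14 were higher in late replicate 2 (16.1% of all genes), and Dhx58, Zbp1, Ifit1, Ifit3, Isg15, Usp18 and Ifi44 were higher in late replicate 1 (10.7%).

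**Figure D4:**
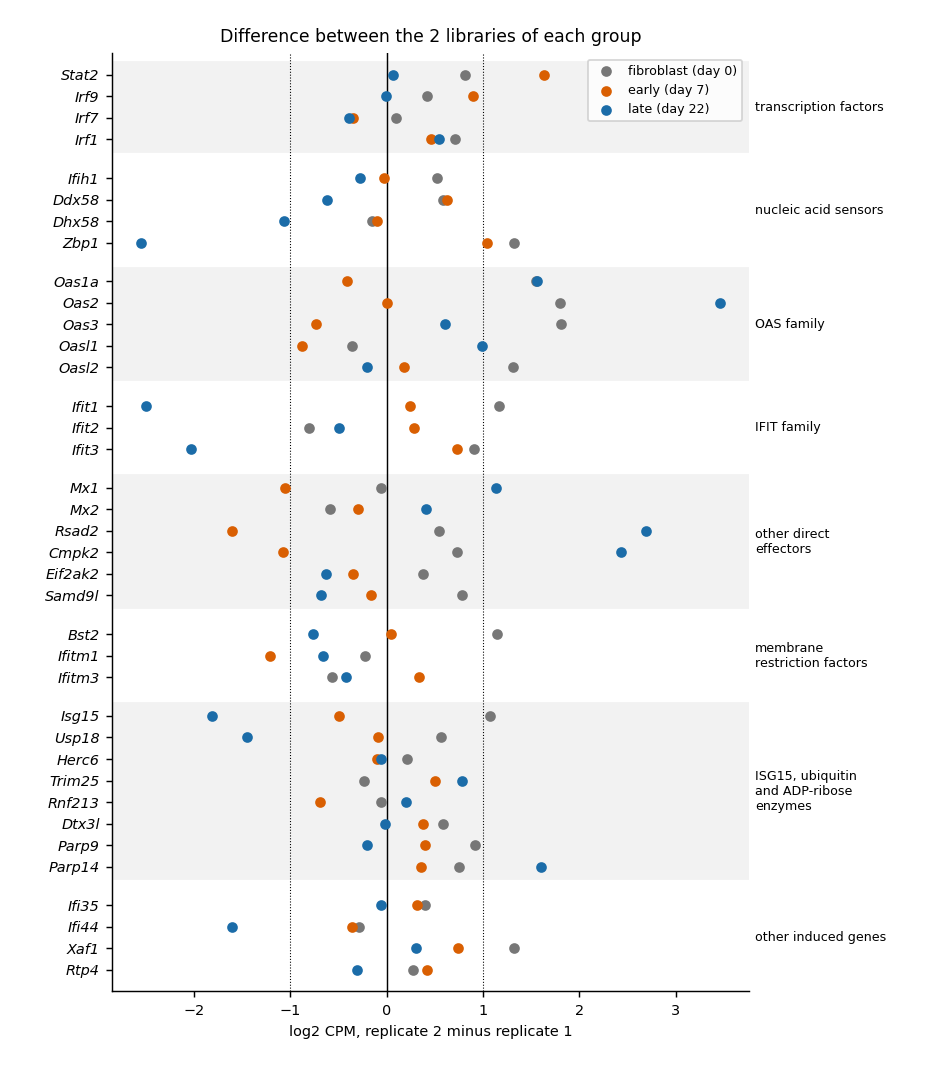
Log2 CPM of replicate 2 minus replicate 1 (x axis) of the 37 genes in fibroblasts (grey), early cells (orange) and late colonies (blue), with dotted lines at a 2-fold difference. The blue points reach from Zbp1 on the left to Oas2 on the right, and 13 lie outside the dotted lines.

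Markers of other cell types differed between the same libraries. The sum of 14 macrophage and leukocyte markers was 322 and 1310 CPM in fibroblasts, 116 and 51.2 CPM in early cells and 71.8 and 265 CPM in late colonies. The higher fibroblast value was in replicate 2, which also held the higher value of the 9 genes above. In early cells Cd14 alone made up 111 and 40.2 CPM of the sum, the macrophage genes Itgam and Aif1 were at 0 counts in both libraries, and Adgre1 had 0 and 1 counts. Of the 14 markers 3 were at 0 counts in early replicate 1 and 5 in early replicate 2. Several others had few counts in early replicates 1 and 2, such as Ptprc at 1 and 2, C1qb at 2 and 1 and Mrc1 at 2 and 1. Lyz2 had 23 and 154 counts, Csf1r 32 and 44 and Cd68 39 and 25. Dendritic and lymphoid markers, 7 genes, summed to at most 1.85 CPM in any library. Late replicate 2 also had 648 CPM of 6 endothelial markers, against 23.1 CPM in late replicate 1, beside its higher Oas2, Rsad2 and Cmpk2. In the same library 3 erythroid markers summed to 921 CPM, against at most 2.56 CPM in any other library. The part of these cell types in the values of the antiviral genes was not tested.

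The 11 interferon genes listed had at most 1 count in any library, and other interferon genes were not looked up. The Ifna genes are near-identical copies, and how reads that match several of them were counted is not known. Of 11 interferon genes, among them Ifnb1, 10 had 0 counts in all 6 libraries, and Ifng had 1 count in late replicate 2. A count of 0 allows up to 3 counts, which is 0.0842 to 0.142 CPM depending on the library. The receptors and their kinases were detected in all 6 libraries, and edgeR called 0 of 9 in each comparison, with 3 at an unadjusted p under 0.05 in early cells against fibroblasts (29.8% of all genes), 3 in late colonies against fibroblasts (32.5%) and 0 in late colonies against early cells (10.2%). These counts are near the shares of all genes. DESeq2 called 2 of the 9 higher and 1 lower in early cells against fibroblasts (12.6% of all genes in each direction). It called 1 higher (14.7%) and 1 lower (13.3%) in late colonies against fibroblasts, and 0 in late colonies against early cells. Ifnar1 was at 84.4 and 88.8 CPM in fibroblasts, 67.7 and 77.4 CPM in early cells and 64.4 and 61.9 CPM in late colonies. Ifnar2 was at 43.2 and 53.9 CPM in fibroblasts, 32.7 and 79.5 CPM in early cells and 33.3 and 38.6 CPM in late colonies. Jak1, the kinase on both receptor types, was at 350 and 370 CPM in fibroblasts, 235 and 206 CPM in early cells and 178 and 188 CPM in late colonies. Jak2, a kinase of the interferon gamma receptor, was at 61.8 and 44.2 CPM in fibroblasts, 107 and 111 CPM in early cells and 81.6 and 80 CPM in late colonies. Ifnlr1, a chain of the type III interferon receptor, was at 0.638 and 0.677 CPM in fibroblasts, 3.30 and 3.60 CPM in early cells and 2.33 and 4.30 CPM in late colonies. Jak1 was thus highest and Jak2 and Ifnlr1 lowest in fibroblasts, with no overlap with the other libraries. Ifngr1 and Il10rb had overlapping libraries in early cells and fibroblasts.

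In the pathway that induces interferon, 1 of 13 genes tested was called in early cells against fibroblasts, against 1.53% of all genes. Tmem173, the DNA-sensing adaptor STING, rose to 53.9 and 78.2 CPM in early cells, against 19.4 and 17.1 CPM in fibroblasts, a log2 fold change of 1.85 ± 0.27 (edgeR adjusted p = 0.0472), and was at 26.1 and 25 CPM in late colonies. Its upstream sensor Cgas was at 3.83 and 4.47 CPM in fibroblasts, 5.97 and 5.35 CPM in early cells and 4.75 and 2.53 CPM in late colonies. Mavs, the adaptor of the RNA sensors, stayed between 35.2 and 71.9 CPM and Irf3, the first factor to drive interferon genes, between 36.0 and 48.9 CPM over the 6 libraries. Tlr7 and Irf5, an endosomal RNA sensor and a factor found mainly in immune cells, were lower in both early libraries than in both fibroblast libraries. Tlr7 was at 2.01 and 6.97 CPM in fibroblasts, 0.490 and 0.0473 CPM in early cells and 0.333 and 1.35 CPM in late colonies, and Tlr7 moved with the macrophage markers given above; their part in it was not tested. Myd88, an adaptor of Toll-like receptors, was at 28.4 and 30 CPM in fibroblasts, 33.4 and 69.9 CPM in early cells and 25.1 and 23.8 CPM in late colonies. Ikbke, a kinase that activates IRF3, overlapped between early cells and fibroblasts. Among brakes and guards against self nucleic acid, 1 of 9 tested was called, against the same 1.53% of all genes. Socs3, an inhibitor of signalling by many cytokine receptors, rose to 139 and 149 CPM in early cells, against 29.9 and 24.6 CPM in fibroblasts, a log2 fold change of 2.40 ± 0.20 (edgeR adjusted p = 0.0224), and was at 60.9 and 59.6 CPM in late colonies. Rnaseh2a and Rnaseh2b, subunits of an enzyme that removes RNA from DNA, were also higher in both early libraries than in both fibroblast libraries. Rnaseh2a was at 17 and 12.2 CPM in fibroblasts, 43.7 and 23.3 CPM in early cells and 38 and 35.6 CPM in late colonies. Socs1 and Adar had overlapping libraries in early cells and fibroblasts. Trex1, an enzyme that degrades stray DNA, was listed at 0 counts in all 6 libraries. How reads that match several genes were counted is not known, so this does not show that its transcript was absent. The calls of Tmem173 and Socs3 were lost without fibroblast replicate 1 (edgeR adjusted p = 0.264 and 0.198), without fibroblast replicate 2 (0.313 and 0.234) and without early replicate 1 (0.0859 and 0.0754), and that of Tmem173 also without early replicate 2 (0.0616).

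**Figure D5:**
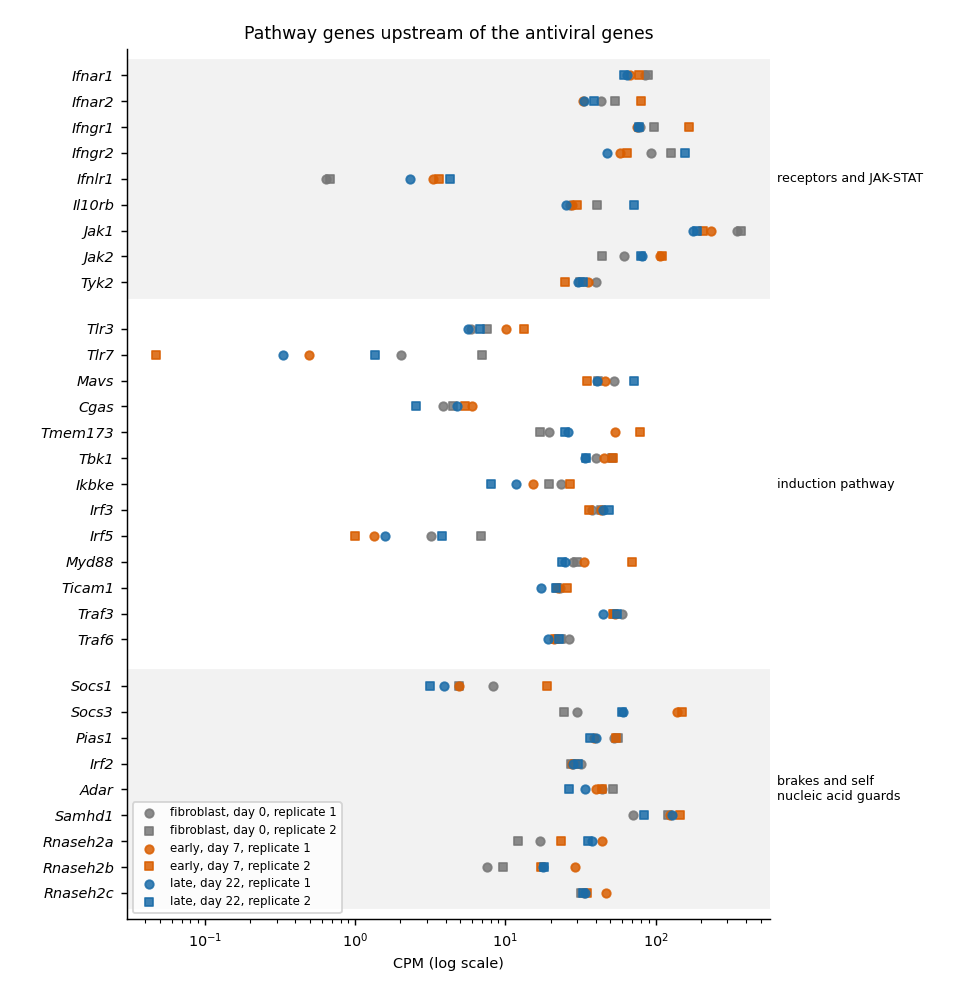
CPM on a log scale (x axis) of the tested genes of 3 lists, receptors and JAK-STAT, induction pathway, and brakes and self nucleic acid guards, in each of the 6 libraries. The early values (orange) of Tmem173 and Socs3 lie to the right of all others, and the fibroblast values (grey) of Jak1 lie to the right of the rest.

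Most of a list of 44 further interferon-stimulated genes were higher in early cells too. This list was also chosen with earlier results of these data known, so its shares are descriptions. Fitted values were higher in early cells than in fibroblasts for 37 of the 44, against 50.2% of all genes, with a median log2 fold change of 1.21 against 0.00, and edgeR called 3, all higher, against 1.53% of all genes. Both early libraries lay above both fibroblast libraries for 28 of the 44 (32.3% of all genes), Oas1g and Trim30a among them. In late colonies against early cells the median was -0.99 against -0.03 over all genes. Slfn9, of the Schlafen family, rose to 96.7 and 48.3 CPM in early cells, against 2.52 and 2.88 CPM in fibroblasts, a log2 fold change of 4.74 ± 0.44 (edgeR adjusted p = 0.0275). Phf11d rose to 23.4 and 40.1 CPM in early cells, against 0.907 and 0.706 CPM in fibroblasts, a log2 fold change of 5.29 ± 0.45 (edgeR adjusted p = 0.0224). Helz2, a helicase that acts as a coactivator of transcription, rose to 59.1 and 58.0 CPM in early cells, against 12.5 and 17.0 CPM in fibroblasts, a log2 fold change of 1.99 ± 0.27 (edgeR adjusted p = 0.0459). Slfn9 and Phf11d were also called in late colonies against fibroblasts, as 2 of the 44, against 1.42% of all genes. Slfn9 rose to 39.1 and 31.5 CPM in late colonies, against 2.52 and 2.88 CPM in fibroblasts, a log2 fold change of 3.71 ± 0.42 (edgeR adjusted p = 0.0436). Phf11d rose to 9.63 and 8.57 CPM in late colonies, against 0.907 and 0.706 CPM in fibroblasts, a log2 fold change of 3.49 ± 0.42 (edgeR adjusted p = 0.0462). The 3 calls in early cells were lost when either fibroblast library or early replicate 1 was left out, with edgeR adjusted p from 0.0608 to 0.264. Without early replicate 2 that of Helz2 was lost too (edgeR adjusted p = 0.0551). Both calls in late colonies were lost without either fibroblast library, with edgeR adjusted p from 0.274 to 0.309, or without late replicate 2, with 0.0738 for Slfn9 and 0.0757 for Phf11d.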

How the data were processed

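Polyadenylated RNA was sequenced in 6 libraries of 3 groups. The authors deposited raw counts per Ensembl gene. The submitters' processing notes list Trimmomatic 0.36, STAR 2.5.2b, featureCounts, Subread 1.5.2 and GRCm38. No source used here gives the strand setting or how multi-mapping reads were handled. Fibroblast columns carry their sample titles. Early and late columns were assigned by name; if that reading were wrong, early and late would change places.

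Gene symbols came from GENCODE M21. Counts were tested with edgeR 4.0.16 in R 4.3.3 (default filter, TMM, robust quasi-likelihood fit of 3 group means over 6 libraries, 3 residual degrees of freedom), with Benjamini-Hochberg adjustment over 16688 genes and a threshold of 0.05. SE is the fold change divided by the root of F. The code was tested on simulated data. CPM use the effective library size, and log2 CPM a prior count of 2. DESeq2 1.42.0, other scalings and filters, a replicate block, fits of 2 groups, a fit without robust estimation and fits leaving out each library were alternatives. The 37 genes and the gene lists were chosen with earlier results of these data known. Members given with a fold change were the 2 most abundant of each role group and the one with the smallest adjusted p per comparison. Those of Ifit1, Isg15, Usp18 and Herc6 were added after the values were seen. Pathway genes given with a fold change were those called. Pathway genes named without one were core members of the pathway and those with the 3 smallest adjusted p per list and comparison. Ifit3b was chosen after its values were seen. 1 gene of the receptor list is not reported here.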

Additional observations from a re-analysis of the deposited data

How the results depend on the processing

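No alternative turned the direction of the median in early cells against fibroblasts (1.30 to 1.82 when leaving out a library) or in late colonies against early cells (-1.28 to -0.96); in late colonies against fibroblasts it ranged from -0.06 to 0.61. The number of all genes called in early cells against fibroblasts, 255, was 4201 with DESeq2, 514 with total counts, 2337 without a filter beyond 1 count, 466 with 1 CPM in 2 libraries, 1469 with only the 2 groups and 0 to 823 when leaving out a library. In late colonies against fibroblasts it was 237, and 4682 with DESeq2, 2495 without the filter, 1016 with 2 groups and 0 to 1058 when leaving out a library. In late colonies against early cells it was 0, and 930 with DESeq2, 276 without the filter and 0 to 602 when leaving out a library. The cause was not tested. Of the 37 antiviral genes, early cells against fibroblasts had 20 called with DESeq2, 3 with total counts, 13 without the filter, 3 with 1 CPM in 2 libraries, 7 with 2 groups and 0 to 3 when leaving out a library. Late colonies against fibroblasts had 7 with DESeq2, 3 without the filter and 0 to 1 when leaving out a library, and late colonies against early cells 6 with DESeq2 and 2 without the filter. Oasl1, Rtp4 and Rnf213 were called in early cells against fibroblasts with total counts, with 1 CPM in 2 libraries, without the filter and with only the 2 groups. Total counts moved the median of all genes by 0.17 in early cells and 0.16 in late colonies against fibroblasts. The count of genes higher in late colonies than in early cells, a comparison of counts added after the data were seen, was 1 to 3 when leaving out a library.

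Alternatives for single genes were run for the antiviral genes given with a fold change, except Ifit1, Isg15, Usp18 and Herc6. Among the genes run, direction turned only when a library was left out. In early cells against fibroblasts Stat2 was at -0.13 without early replicate 2 (range -0.13 to 1.47), and Eif2ak2 at -0.02 without fibroblast replicate 1 and -0.01 without early replicate 1 (highest 0.37). In late colonies against fibroblasts Irf9 was at 0.03 without fibroblast replicate 2 (lowest -0.39). Without late replicate 1 Zbp1 was at -1.14 (highest 1.66), Samd9l at -0.27 (highest 0.63) and Ifi44 at -0.34 (highest 1.39). Other turns were Samd9l at -0.16 without fibroblast replicate 1 and Oas2 at -0.26 without late replicate 2 (highest 3.90). In late colonies against early cells Trim25 was at 0.02 without late replicate 1 (lowest -0.66).

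Replicate differences correlated at r = 0.121 between early cells and fibroblasts, 0.238 between late colonies and fibroblasts and 0.086 between late colonies and early cells, so the replicate numbers were not taken as pairs. With the replicate number as a block 26 genes were called in early cells and 9 in late colonies against fibroblasts, and 0 of the 37 antiviral genes, and the calls of Slfn9, Phf11d, Helz2, Tmem173 and Socs3 were not made (edgeR adjusted p from 0.0586 to 0.0757). Settings for these 5 genes were added after the data were seen. Depth limits the lowest genes: Mx1 had 2 counts in fibroblasts.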
